A study of Mus musculus with 2 samples.

Results

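Macrophage marker genes were examined in the gastrocnemius, the main calf muscle, of mice whose hindlimb muscles had been immobilised in a plaster cast. The 10 genes were Lgals3, Gpnmb, Cd68, Lyz1, Lyz2, Adgre1 (F4/80, written Emr1 on the array), Csf1r, Mrc1, Cd163 and Cd14. They were found as all non-control probes that carry one of these names, which gave 13 probes among the 39429 probes of the array, and 10 genes among the 22803 named genes. Both groups were male C57BL/6 mice of 9 weeks, WT in the submitters' text. The cast group had worn the cast for 11 days, and the control group had no stated treatment. Samples were pooled within each group, read here as 6 mice per pool, and RNA of each pool, carrying the dye Cy3, went onto 1 array that covers the mouse genome. This makes n = 1 array for either group. There is no replicate, no test and no SE between animals, and every difference below describes these 2 pools.

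Macrophages are phagocytes that live in the connective tissue between muscle fibres and are joined by blood monocytes after damage. Their survival depends on the receptor CSF1R, and they clear debris through scavenger receptors and degrade it in lysosomes. F4/80, CD68, CD163 and CD206 (the product of Mrc1) are the surface and lysosomal proteins by which they are commonly recognised in mouse tissue. Galectin-3, also known as Mac-2, and GPNMB are made by activated and lipid-laden macrophages, but also by other cells, so neither marks macrophages alone.

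The log2 ratios of the measured genes ran from 2.66 down to -0.06. Galectin-3 (Lgals3) was 6.34-fold higher in cast, and Gpnmb 2.23-fold higher. The lysozyme gene of myeloid cells (Lyz2) and the mannose receptor gene (Mrc1) were 1.49-fold and 1.42-fold higher. The receptor genes Csf1r and Adgre1, which mark macrophages in general, had log2 ratios of 0.01 and -0.06, or 0.36 and 0.29 with spike-in scaling. Other general markers were not all near 0. A list of macrophage markers described below had a median of 0.33 over 10 measured genes, from -0.53 (Itgam) to 1.17 (Aif1). It includes Csf1r, Adgre1, Lyz2, Mrc1 and Cd14 themselves. Its other 5 measured genes had a median of 0.38. Of the 10 genes, 8 had at least 1 probe that stood well above background in control and cast alike, and the named probes of Cd68 and Cd163 did not. A Cd68 probe without a gene symbol, picked out after its values were seen, stood above background on both arrays and was at 1.44.

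The probes are what these values rest on, and those with the most bearing on the result are shown here, 5′ to 3′. The Lgals3 probe is the one with the largest difference, and its last 30 bases hold the polyadenylation signal AATAAA in capitals, which 12.6% of all probes hold. The Lyz1 probe likewise ends with the variant signal ATTAAA, found in 4.56% of probes. Lyz2 is the neighbouring paralogue of Lyz1, so the probes of both genes were compared with each other. The Adgre1 probe shown is one of a pair of probes whose ratios were both near 0. All 4 are in lower case apart from the signals.
Lgals3 probe, bases 31 to 60: tccatttAATAAAgtctcatgctgagagat
Lyz1 probe, bases 31 to 60: cagtgaaaaagtacaaatggcATTAAAtga
Lyz2 probe, bases 1 to 60: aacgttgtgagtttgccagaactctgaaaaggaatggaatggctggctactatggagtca
Adgre1 probe, bases 1 to 60: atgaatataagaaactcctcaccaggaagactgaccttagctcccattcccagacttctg

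No probe of these genes shared a run of 16 or more bases with a probe of another member. The Lyz2 probe shared a run of 16 bases with a probe of Angpt2, and the Cd163 probe a run of 16 bases, in reverse complement, with a probe of a clone-named gene. Comparing probes with each other cannot show whether the Lyz1 and Lyz2 probes also bind the transcript of the other gene. This was not tested, because transcript sequences were not used here.

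Values are the processed intensity of the scanner software. A ratio sets the 2 arrays side by side after each was divided by its own 75th percentile, which was 385 in control and 486 in cast. Levels of different probes are not compared, since probes differ in how strongly they bind. A probe was called well above background by the software's flag, which 60.6% of probes passed in control and 56.7% in cast. The dimmest probe so called read 13.1 in control and 20.6 in cast. No gene spot was saturated. Muscle fibre markers such as Acta1 and Ckm were measured in 9 of 9 cases, as the tissue label would have it. Across all 14172 measured genes the median log2 ratio was -0.03, and with spike-in scaling it was 0.32, so log2 ratios a little below 0 turn positive on that scale.

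Of the 8 measured markers, 2 were 2-fold or more higher in cast, where 2.24% of all measured genes were. None of the 8 was at least 2-fold lower, against 2.13% of all genes. With spike-in scaling 5.64% of all genes were that much higher and 0.811% lower, and the markers' counts were again 2 and 0. At a 1.5-fold threshold the counts as scaled here were 2 higher and 0 lower, against 6.98% and 8.26% of all genes. The count of higher markers at this threshold moved with the processing. Lyz2 also passed it with median, quantile and loess scaling, at 0.66, 0.62 and 0.64. With spike-ins Lyz2, Mrc1 and Lyz1 passed it at 0.93, 0.85 and 0.65, and all of them also passed unscaled. With normexp correction Gpnmb fell short of it at 0.54. The share of all genes past 1.5-fold was not worked out for these settings. Gpnmb at 2.23-fold was the member just inside the 2-fold threshold, and Lyz2 at 1.49-fold the one just outside. Log2 ratios were above 0 for 7 of the 8, against 46.9% of all genes, and the median over the 8 was 0.40. The 8 include no value for Cd68 and Cd163, and no test was possible with 1 array per group. In pooled whole muscle, more cells of a type and more RNA per cell cannot be told apart.

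**Figure D1:**
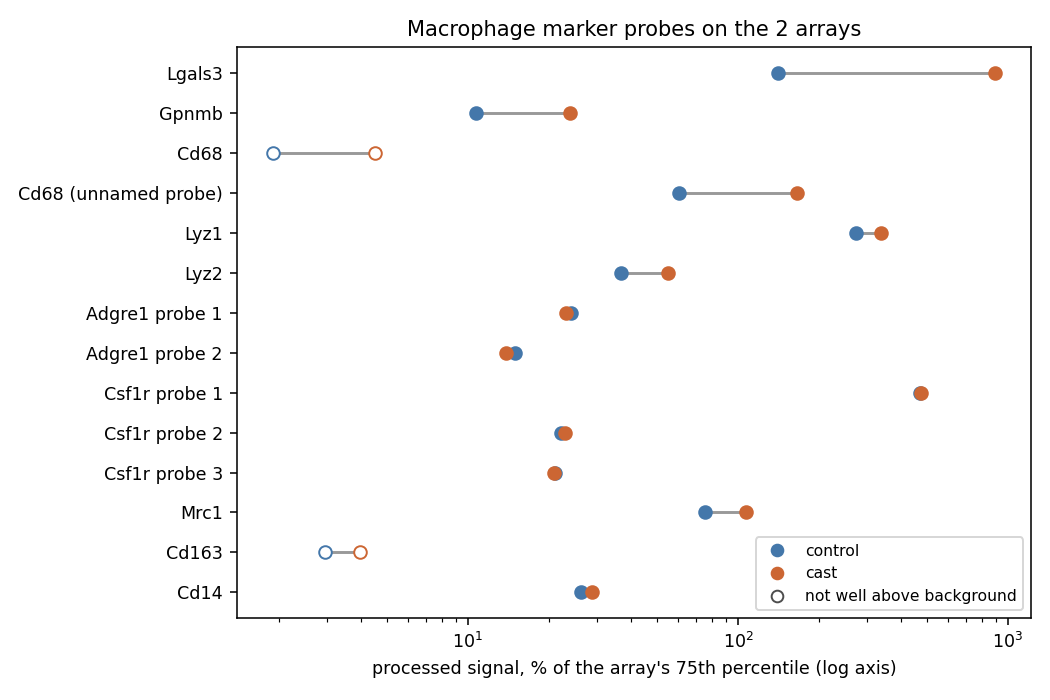
Processed signal of each probe as a percentage of its array's 75th percentile (log axis), with the control array in blue and the cast array in orange and open circles for probes not well above background. Lgals3 goes from 141% to 895%, while the probes of Csf1r and Adgre1 lie nearly on top of each other, and levels of different probes cannot be compared.

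The secreted lectin comes first. Galectin-3 binds galactose-containing sugars on proteins and lipids, and is found in the cytoplasm, on the cell surface and on damaged lysosomes. Its only probe (mm9, chromosome 14, 48005414 to 48005473) had a processed signal of 544 in control and 4353 in cast. After scaling the log2 ratio was 2.66, with an error of 0.20 by the software's error model. Lgals3 ranked 21 of 14172 genes from the highest, and 0.148% of genes had a ratio as high or higher. Its value ran from 2.53 to 3.01 over 12 alternative settings, all above 2-fold. Those that changed only the filter or probe rule could not move it, since its only probe was measured on both arrays.

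Other galectins did not share this size. The galectin list held Lgals3 and 5 other measured genes, of which none was at least 2-fold apart as scaled here. Galectin-1 (Lgals1), which is made in muscle and connective tissue, had a log2 ratio of 0.78, which passed 2-fold unscaled (1.12) and with spike-ins (1.13), and levels of 5383% and 9274% of the 75th percentile. Galectin-3 binding protein (Lgals3bp) was at -0.32, and turned to 0.01 unscaled and 0.02 with spike-in scaling. Lgals8 was at 0.14 and Lgals4 at -0.12, the latter positive at 0.23 with spike-in scaling.

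GPNMB is a transmembrane glycoprotein of lysosomes and melanosomes. Its single probe (chromosome 6, 49006386 to 49006445) read 41.2 in control and 116 in cast, both well above background but dim. The log2 ratio was 1.15 with a software error of 0.24, and Gpnmb ranked 212 from the highest. With normexp background correction, which adds an offset of 50 and so compresses dim probes, the log2 ratio of Gpnmb was 0.54 and no longer past 2-fold. It was past 2-fold in 10 of 11 alternatives, of which those that changed only the filter or probe rule could not move it.

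Cd68 encodes macrosialin, a heavily glycosylated lysosomal membrane protein of macrophages. Its named probe (chromosome 11, 69478979 to 69479038) read 7.28 in control and 21.96 in cast and was not well above background on either, so it gives no fold. A second probe on the same strand (chromosome 11, 69477775 to 69477834) carries no gene symbol on the array, but is annotated there as CD68 antigen and shares a transcript accession with the named probe. It falls outside the name rule and was picked out after its values were seen. It read 233 in control and 802 in cast, was well above background on both, and had a log2 ratio of 1.44 with a software error of 0.21. With this probe standing for Cd68, 3 of 9 markers would be at least 2-fold higher, and the median would be 0.50.

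**Figure D2:**
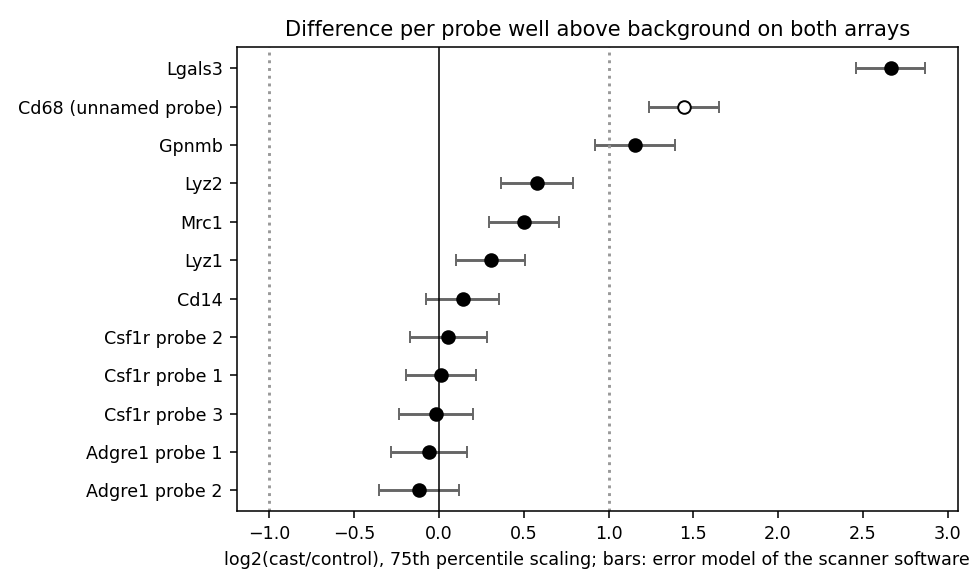
Log2(cast/control) of each probe well above background on both arrays, with bars for the error model of the scanner software, a filled point for a probe of a named member and an open point for the unnamed Cd68 probe. Lgals3, Gpnmb and the unnamed Cd68 probe lie beyond the dotted 2-fold line, and all 5 probes of Csf1r and Adgre1 have bars that cross 0.

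Lysosomal membrane genes and the MiT transcription factors, which drive lysosomal gene expression, were looked at alongside. Of the 9 measured genes of this list, Gpnmb alone was at least 2-fold higher, none was at least 2-fold lower, and the median was 0.27. Lamp2 and Cd63, membrane proteins of lysosomes and late endosomes, were at 0.52 and 0.41. Lamp3 was at -0.995, just short of 2-fold lower, and at -1.01 and -1.03 with quantile and loess scaling. The named Cd68 probe and Tfec were not well above background on either array.

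Lysozymes cleave bacterial cell walls. In the mouse, Lyz2 is the gene of macrophages and neutrophils, and Lyz1 is known from Paneth cells of the gut. The Lyz2 probe (chromosome 10, 116719175 to 116719234) read 142 in control and 268 in cast, a log2 ratio of 0.58 with a software error of 0.21. Lyz1 (chromosome 10, 116724862 to 116724921) read 1057 and 1650, a log2 ratio of 0.31 with an error of 0.20. Both were higher on the cast array, Lyz1 by 1.24-fold and Lyz2 by 1.49-fold. The other Paneth cell genes on the array, Ang4, Mmp7 and Pla2g2a, were not well above background on either array.

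The promoters of the pair are shown because both genes had a ratio above 0 and lie next to each other. These are the 250 bases before the start site, from RefSeq on GRCm38.p6, minus strand, chr10:117282273-117282522 for Lyz2 and chr10:117292869-117293118 for Lyz1. Aligned, they were identical in 205 of 260 columns (78.8%), and the capitals mark the longest shared run of 50 bases, which ends at the start site. The Cd68 promoter (minus strand, chr11:69666171-69666420) is shown because among these genes it alone held the AP-1 motif before the start, in capitals. RefSeq promoters were matched for 7 of the 10 genes.
Lyz2 promoter: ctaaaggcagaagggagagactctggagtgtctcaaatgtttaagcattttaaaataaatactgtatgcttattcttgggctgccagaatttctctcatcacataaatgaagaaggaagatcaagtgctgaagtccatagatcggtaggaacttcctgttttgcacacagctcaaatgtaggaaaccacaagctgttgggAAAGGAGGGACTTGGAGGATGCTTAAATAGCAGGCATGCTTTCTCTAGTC
Lyz1 promoter: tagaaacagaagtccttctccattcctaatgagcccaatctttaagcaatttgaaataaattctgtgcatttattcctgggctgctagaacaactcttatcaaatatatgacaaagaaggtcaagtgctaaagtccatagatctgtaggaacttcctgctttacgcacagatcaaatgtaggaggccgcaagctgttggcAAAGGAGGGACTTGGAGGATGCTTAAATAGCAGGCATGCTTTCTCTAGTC
Cd68 promoter: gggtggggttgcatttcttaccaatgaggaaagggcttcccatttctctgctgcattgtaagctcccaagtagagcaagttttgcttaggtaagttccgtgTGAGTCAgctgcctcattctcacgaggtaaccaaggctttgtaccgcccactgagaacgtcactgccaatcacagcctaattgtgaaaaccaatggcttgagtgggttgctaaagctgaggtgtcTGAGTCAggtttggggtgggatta

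The letters of 3 motifs were searched on both strands in the 250 bases before the start. The AP-1 motif TGANTCA was found in 6.75% of 32851 promoters and in Cd68 alone among the 7, with matches that start at -149 and -24. In the whole window of 300 bases, where 7.81% of promoters held it, Gpnmb also had a match, 9 bases into the transcribed part. The ETS core GAGGAA, of the kind bound by the myeloid factor PU.1, was found in 23.3% of promoters, and among the 7 in Cd68 and Mrc1. The C/EBP motif TTGCNNAA was found in 9.56%, and in Cd68 and Lyz1. None of the matches in Cd68 overlapped another. A match describes the letters only, and binding was not measured.

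Of the surface receptors, Csf1r, Adgre1 and Cd14 were nearer to 0 than Mrc1. CSF1R is the receptor kinase for the macrophage growth factors CSF1 and interleukin 34. Its brightest probe (chromosome 18, 61290725 to 61290784) read 1820 and 2317, which after scaling is 472% and 476% of the 75th percentile and a log2 ratio of 0.01. A second probe, whose coordinates run over 361 bases of the genome (chromosome 18, 61289398 to 61289758) and so cross an intron, gave 0.06. The third (chromosome 18, 61278661 to 61278720) gave -0.02. The 3 probes of Csf1r thus lay within their software errors of 0.20 to 0.23 of no difference as scaled here. With quantile and loess scaling Csf1r was just below 0, at -0.0022 and -0.02, and unscaled it was at 0.35.

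Adgre1 encodes F4/80, an adhesion-type receptor and the classical surface antigen of mouse tissue macrophages. Its brighter probe (chromosome 17, 57622868 to 57622927) read 92.5 in control and 112 in cast, a log2 ratio of -0.06. The dimmer probe, the one printed above (chromosome 17, 57620350 to 57620409), read 57.7 and 67.1, a log2 ratio of -0.12. Both are the lowest values among the measured markers, with errors of 0.22 and 0.23. The sign of Adgre1 turned with the scaling, to 0.02 with median and with loess scaling, 0.28 unscaled and 0.29 with spike-ins.

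Mrc1 encodes the mannose receptor CD206, a scavenger and endocytic receptor abundant on resident and repair-associated macrophages. Its probe (chromosome 2, 14253273 to 14253332) read 292 in control and 522 in cast, a log2 ratio of 0.50 with a software error of 0.20, and 9.46% of genes had a ratio as high or higher. Its relatives Mrc2 and Pla2r1 were at -0.31 and -0.25, and at 0.04 and 0.10 with spike-in scaling, and Ly75 stayed below the software's background limit on both arrays.

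Cd14 encodes the co-receptor through which Toll-like receptor 4 senses lipopolysaccharide. Its probe (chromosome 18, 36884969 to 36885028) read 101 in control and 141 in cast, a log2 ratio of 0.14 with an error of 0.21, and 32.7% of genes had a ratio as high or higher. Among the 8 measured genes of this receptor system, Tlr2 was the only one at least 2-fold higher, at 1.03, and at 0.52 with normexp correction. Tlr6 was at 0.91 from a dim probe, passed 2-fold unscaled and with spike-ins (1.26 in the latter), and was at 0.10 with normexp. Lbp and Tlr4 were at 0.57 and 0.44. The median of the list was 0.44.

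CD163 is the scavenger receptor for haemoglobin bound to haptoglobin. Its probe (chromosome 6, 124270436 to 124270495) read 11.4 in control and 19.4 in cast and was not well above background on either, so no ratio is given. In the list of haem scavenging around it, 7 genes were measured, none was 2-fold apart and the median was -0.01, or 0.33 with spike-in scaling. Haptoglobin (Hp) was at 0.80, and past 2-fold unscaled (1.13) and with spike-ins (1.14). The iron exporter Slc40a1 was at -0.56, and the biliverdin reductases Blvrb and Blvra were at 0.33 and -0.18, of which Blvra was at 0.17 with spike-in scaling.

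**Figure D3:**
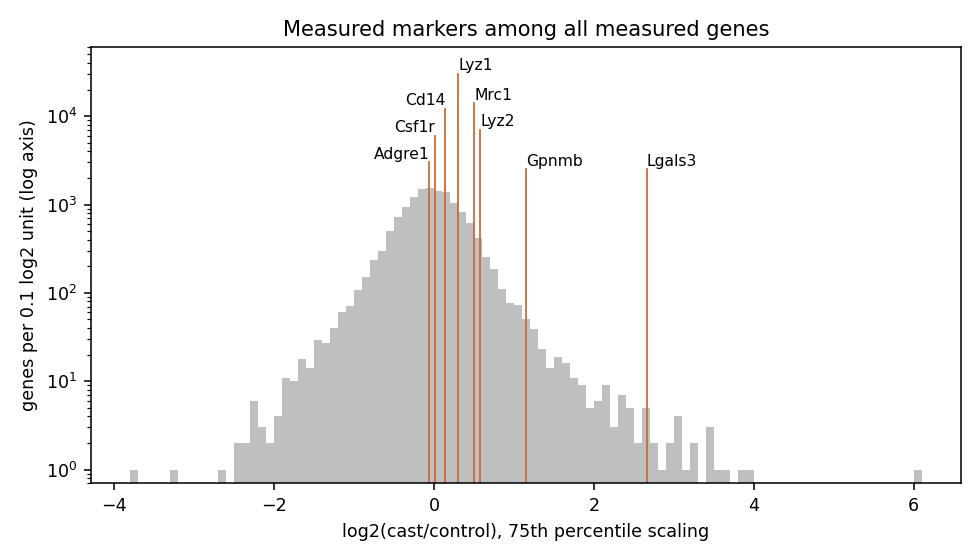
Histogram of log2(cast/control) over all 14172 measured genes in bins of 0.1 (count on a log axis), with a line at each of the 8 measured markers. Adgre1, Csf1r, Cd14 and Lyz1 stand in the bulk of the genes, Mrc1, Lyz2 and Gpnmb on its right flank and Lgals3 in the far right tail.

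In the list of the CSF1 receptor axis, 1 of 13 genes was at least 2-fold apart. This was Runx1, a transcription factor of blood cells that denervated muscle also makes, which was at 3.23. Its probe was dim in control, at 8.03% of the 75th percentile, and with normexp correction its ratio was 1.72. The ligands Csf1 and Il34, named here for their role, were at 0.14 and -0.32, and Il34 was at 0.03 with spike-in scaling. The factor PU.1 (Spi1), named for the same reason, was at -0.05 from a very dim probe, and at 0.03 with median scaling. Csf2rb and Maf were at 0.83 and 0.65, but each had a second probe in the other direction, at -0.53 and -0.29. Csf2rb passed 2-fold unscaled (1.17) and with spike-ins (1.18). The median over the 13 genes was 0.14.

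A list of 34 other macrophage genes was described in the same way. Of its 29 measured genes, 3 were at least 2-fold higher and 0 at least 2-fold lower, against 2.24% and 2.13% of all genes. The count of higher genes moved with the processing. It was 5 with median, quantile and loess scaling, 7 unscaled, 8 with spike-ins, 2 in the deposited table and 1 with normexp, where 5.46% of all genes were as high unscaled and 1.26% with normexp. The median was 0.34, and 22 were above 0. Cathepsin S (Ctss), a protease of antigen-presenting cells, was at 1.18, and Aif1, which encodes the macrophage protein IBA1, at 1.17. Trem2, a lipid-sensing receptor of phagocytes, was at 1.01 and the Fc receptor Fcgr2b at 0.97. With normexp correction Ctss stayed past 2-fold at 1.06, while Aif1 was at 0.85 and Trem2 at 0.59. Msr1 and Siglec1 were not well above background on either array.

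Genes shared by all leukocytes had a median of 0.29 over 11 measured genes, of which 10 were above 0 and none was 2-fold apart. Laptm5 was at 0.65, Cd52 at 0.57, the leukocyte phosphatase Ptprc (CD45) at 0.49 and Lcp1 at 0.43. With normexp background correction the median of this list was 0.12.

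As scaled here, genes associated with macrophage states went in no common direction. In the repair list, 2 of 11 measured genes were at least 2-fold higher, the chitinase-like Chil3 at 2.44 and Trem2. With normexp correction neither passed, with Chil3 at 0.996 from a probe that was dim in control, and 1 of the 2 passed in the deposited series values. Retnla and the lectin Mgl2 were at -0.68 and -0.27, of which Mgl2 was at 0.08 with spike-in scaling. The median was 0.11, or -0.06 with normexp correction and 0.46 with spike-in scaling, where the median of all genes was 0.32. Arg1, Il10 and Gdf15 were not well above background on either array. Tnf, Il1b and Il6 were among 8 inflammatory genes whose probes stayed at background. Of the 4 that were measured, the monocyte chemokine Ccl2 was at 2.34 (1.52 with normexp) and Nos2 at -0.56. Cd80 was at -0.17 (0.18 with spike-in scaling) and Ly6c1 at 0.08. The median of the 4 was -0.05, or 0.30 with spike-in scaling.

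**Figure D4:**
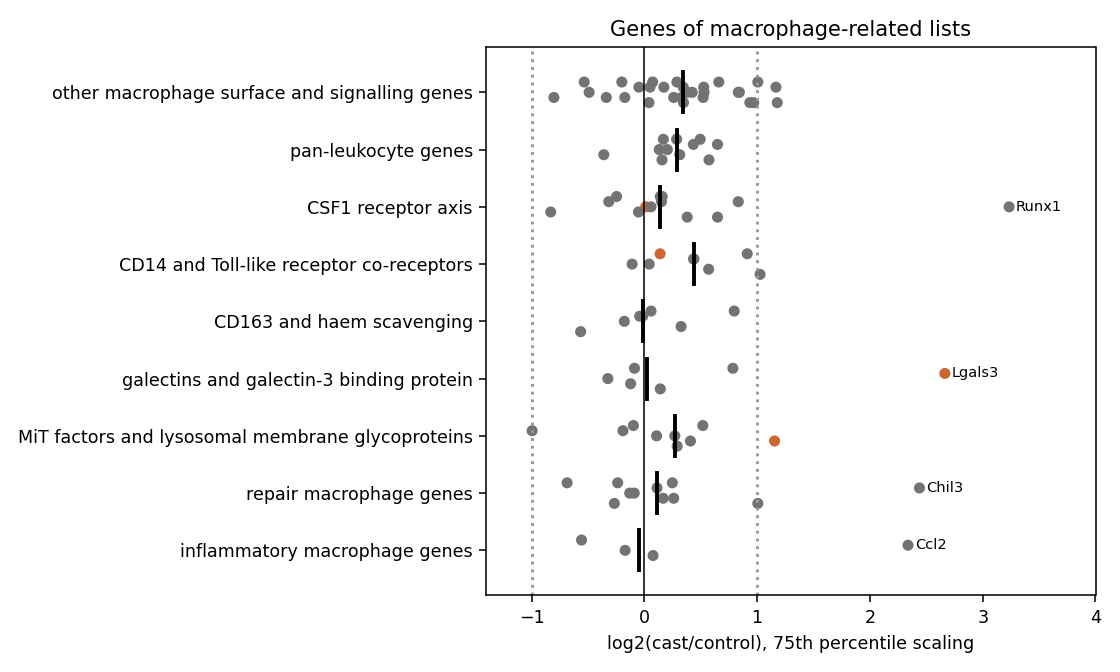
Log2(cast/control) of each measured gene in 9 macrophage-related lists, with black bars at the list medians, members in orange and dotted lines at 2-fold. Runx1, Lgals3, Chil3 and Ccl2 stand far to the right of their lists, whose medians lie between -0.05 and 0.44.

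Markers of other cell types were set beside these values. A macrophage list of 12 genes, 7 of them members, had a median of 0.33 over 10 measured genes. Its summed level was 2225% of the 75th percentile in control and 1953% in cast. That sum is dominated by the probe of Itgam at 1379% and 953%. Without Itgam the sum was 846% and 1000.0% over 9 genes, of which the Csf1r probe held 472% and 476%. Such sums add probes that differ in how strongly they bind, so the brightest probes weigh most. Itgam, which neutrophils and natural killer cells also express, had a log2 ratio of -0.53, and its 3 probes ranged from -0.59 to -0.32.

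Neutrophil markers had a median of 0.25 over 7 of 11 genes, with sums of 6713% and 5899%. Nearly all of that sum was the probe of Csf3r, the receptor of a granulocyte growth factor, at 6602% and 5608%. Without Csf3r the other 6 genes summed to 112% in control and 291% in cast. Most of that rise was the probe of S100a9, at 40.4% and 189%, and S100a8 also rose. Elane fell from 39.1% to 26.9%. The remaining genes read at most 16.7% on either array, with log2 ratios from 0.18 to 0.84. The sum without Csf3r thus rests mostly on S100a9 and S100a8 and does not show a rise of that size shared by the list. By log2 ratio 5 of the 7 measured genes were above 0, with Csf3r and Elane below. Of the 5, Mpo was at -0.03 with normexp correction. S100a9 and S100a8, which monocytes also make, were at 2.23 and 2.21 (1.91 and 1.32 with normexp), the latter named after its value was seen. The granule gene Elane was at -0.54, and Ltf, Mmp8, Ngp and Cxcr2 were at background level on both. T cell, B cell and natural killer cell markers were measured in 3 of 8, 2 of 6 and 1 of 6 cases, with medians of -0.13, -0.70 and -0.37. Mast cell markers were measured in 5 of 6 cases with a median of -0.13, and dendritic cell markers in 4 of 7 with a median of 0.20. Fibro-adipogenic and endothelial markers, which make up much of the tissue between fibres, had medians of -0.31 and -0.32. The muscle fibre markers had a median of -0.19. Medians were -0.81 for tendon cell, -0.32 for satellite cell, -0.15 for Schwann cell, -0.23 for adipocyte and 0.02 for smooth muscle markers. Of these negative medians, those of B cell, natural killer cell and tendon cell markers stayed below 0 with spike-in scaling, at -0.35, -0.03 and -0.46. The others were above 0 on that scale. Tendon and satellite cell markers went both ways. Of 5 measured tendon cell markers 2 were above 0, Scx at 0.48 and Thbs4 at 0.47. The 4 measured satellite cell markers ran from -1.47 (Chrdl2) to 1.35 (Cdh15). The part that the mix of cell types has in the differences of Lgals3, Gpnmb, Lyz2 and Mrc1 was not tested.

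**Figure D5:**
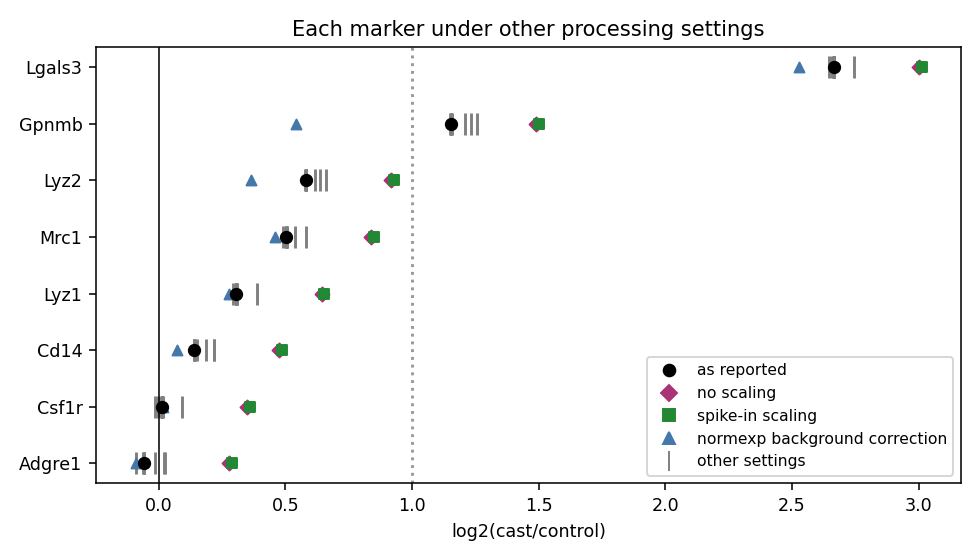
Log2(cast/control) of each measured marker as reported (black) and under the alternative settings, with coloured symbols for no scaling, spike-in scaling and normexp background correction. Lgals3 lies between 2.53 and 3.01, Gpnmb drops to 0.54 with normexp, and Adgre1 and Csf1r move to between 0.28 and 0.36 unscaled or with spike-ins.

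The order of the 8 measured markers by log2 ratio was Lgals3, Gpnmb, Lyz2, Mrc1, Lyz1, Cd14, Csf1r and Adgre1. Between neighbours, Lgals3 and Gpnmb, and Gpnmb and Lyz2, were further apart than the software error of either. The neighbours from Lyz2 down to Adgre1 were not. With normexp correction Gpnmb and Lyz2 were at 0.54 and 0.36, closer together than the software error of either. The SD between spots for 259 replicated probes, on the log2 ratio scale and at 0.10 in the median and 0.16 for the dimmest 64, was smaller than these errors, and neither covers the spread between mice.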

How the data were processed

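Probe coordinates are on mm9, per the file headers of these 1-colour Agilent arrays. Agilent Feature Extraction 9.5 read the spots, as the submitters' processing notes give it. Per the file headers, the deposited processed intensity is the spot brightness with background subtracted and trends within the array removed, unscaled between arrays, and it comes with the software's error. The deposited series table holds the processed intensity over each array's 75th percentile, times 100, partly rounded (54.9% whole numbers). Its column medians were 9.00 and 8.70, and it differed by at most 0.50 from the rescaled signal.

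From there, log2 signals were averaged per probe without control spots and flagged spots (2 and 9), and each array's 75th percentile was subtracted (R 4.3.3, limma 3.58.1, Python 3.11.15). A gene was measured when a probe was well above background on both arrays, and took the value of its brightest such probe. Probes were named through accessions in the RefSeq table of GRCm38 (26055 of 39429), otherwise through the array's symbol (3195) or a unique synonym (930), while 9249 stayed unnamed. With 1 pooled array per group there was no test, and a 2-fold threshold was used. The ratio steps were tested on simulated data built from the control array. Both simulated arrays had the same background flags, so the handling of dim probes was not tested. The number of arrays limits the precision. The members, lists, motifs and settings were chosen with earlier results of these data known. All members were named, and from each list up to 4 genes with the largest absolute log2 ratio and any at least 2-fold apart, and from cell type lists up to 3 with the highest level, apart from exceptions stated. A gene that this rule would name is not reported here. Alternatives changed scaling, background correction, filter, probe rule and starting values.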

Additional observations from a re-analysis of the deposited data

How the results depend on the processing

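With 1 array per group there is no replicate to leave out, and no paired analysis was possible because each group has 1 array. The median log2 ratio of the 8 markers, 0.40 as reported, was 0.74 unscaled and 0.75 when scaled on spike-ins, where the median of all genes was 0.31 and 0.32. It was 0.31 among the 3 markers at or above the median level, 0.31 without Lgals3, and 0.50 with the unnamed Cd68 probe added, an alternative chosen after seeing the data. The count of markers at least 2-fold higher, 2 as reported, was 1 with normexp and 1 among the brighter genes, and 3 with no filter or with the unnamed Cd68 probe. No alternative made a marker at least 2-fold lower. Relative to the median gene, Lgals3 ranged from 2.58 to 2.71 and Adgre1 from -0.10 to 0.02 over all settings. Dim probes such as that of Gpnmb limit what signal over background can show, and Cd163 was not measurable.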

Other observations

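A CD antigen number, with or without a further letter and digit, is the symbol of 49 measured genes, Cd14 among them. That rule also takes in Cd99l2 and Cd164l2, named for their likeness to a CD antigen, at -0.70 and -0.03. Of the 49, 1 was 2-fold or more higher in cast and 2 were lower by that much, against 2.24% and 2.13% of all genes. Their median log2 ratio was -0.14 with 19 above 0, where 46.9% of all genes were above 0. Unscaled and with spike-ins 3 were higher and 0 lower, with medians of 0.20 and 0.21, and with normexp 1 was higher and 0 lower. In the same order, 5.46%, 5.64% and 1.26% of all genes were that much higher, and 0.826%, 0.811% and 1.01% lower. Cd82, a tetraspanin also found on muscle stem cells, was at 1.17, with 3 probes from 0.92 to 1.17. Cd27, a receptor of lymphocytes, was at -1.21 from dim probes, and Cd200, whose receptor sits on myeloid cells, was at -1.11, and with spike-ins they were at -0.86 and -0.76. The lectin Cd209f, made by a subset of tissue macrophages, was at -0.80, while its relative Cd209d was at 0.70 (1.04 with spike-ins). These genes were chosen by symbol after the data were examined.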
